A study of Homo sapiens with 8 samples.

Results

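ESRG, LINC-ROR, LINC01108, HHLA1, ABHD12B and SCGB3A2 are 6 human genes whose transcripts have been linked to the endogenous retrovirus HERVH in pluripotent cells. They were taken here as the rows that the combined transcript table of the series names with these symbols and that carry a gene name in the combined assembly. This gave 33 of 96614 listed transcripts, with 12 for ESRG, 6 for LINC-ROR, 4 for LINC01108, 3 for HHLA1, 1 for ABHD12B and 7 for SCGB3A2. The series holds 8 PacBio long-read libraries of polyadenylated RNA from H1 cells, an established line of human embryonic stem cells, with 2 repeats in each of 4 groups. The hPSC group was kept undifferentiated in mTeSR1 on Matrigel. The other groups were collected after 5 days of differentiation. Endoderm cultures received WNT3A and 100 ng/ml Activin A in RPMI with 0.5% FBS. Mesoderm cultures received 100 ng/ml VEGF, 100 ng/ml BMP4 and 10 ng/ml bFGF in DMEM/F12 with 0.5% FBS, plus 100 ng/ml Activin A in the opening 24 hours. Ectoderm cultures received 2 µM each of A83-01, PNU-74654 and Dorsomorphin in DMEM/F12 with 15% KOSR. All libraries come from a single cell line, and nothing in the labels says whether the repeats were separate cultures, so the p-values measure only the spread between these libraries.

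HERVH entered the primate germ line as a retrovirus, and many copies remain in the human genome. Each end of a copy is a long terminal repeat (LTR), which in an intact provirus carries the promoter, the start of transcription and a polyadenylation signal. In human pluripotent cells LTRs of the LTR7 family that flank HERVH are known to be bound by pluripotency factors and to act as promoters, both for noncoding RNAs made largely of HERVH sequence and for chimeric transcripts that splice from the LTR into a neighbouring gene. ESRG and LINC-ROR are noncoding RNAs of this kind. HHLA1 was named for its association with a HERVH LTR, and reads through to OC90 in some transcripts. ABHD12B encodes a predicted serine hydrolase, and SCGB3A2 encodes a small secretoglobin best known from airway epithelium.

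Similarity between the first exons is described before the counts. They were taken from GENCODE 29 transcripts on GRCh38, and compared with the 253 bases that ESRG transcribes before the splice donor of its short first exon. Aligned with blastn to these bases, the LINC-ROR exon was 95.3% identical over 215 bases and the ABHD12B exon 96.0% over 177 bases. The first exon of the annotated HHLA1-OC90 readthrough was 96.0% identical over 252 bases. The reference exons begin at different bases of this stretch, and the long-read assembly placed the starts elsewhere. ESRG base 1 corresponds to position 57072156 on chromosome 18 when the LINC-ROR alignment is extended upstream without gaps. That is the assembled start of 16 of the 20 LINC-ROR reads, 37 bases upstream of the reference start. For HHLA1 the corresponding position, 132085656 on chromosome 8, was the assembled start of all 3 transcripts, and lies 19609 bases inside the reference gene. For ABHD12B it was position 50893506 on chromosome 14, and the assembled start was 50893505. The 4 genes therefore began within 1 base of the same point of the shared stretch. These are starts of assembled models, since single read ends were not in the files analysed here. No match to the ESRG exon was found in the reference transcripts of LINC01108. In SCGB3A2 there was only a match on the opposite strand to another part of ESRG (85.1% over 134 bases).

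**Figure D1:**
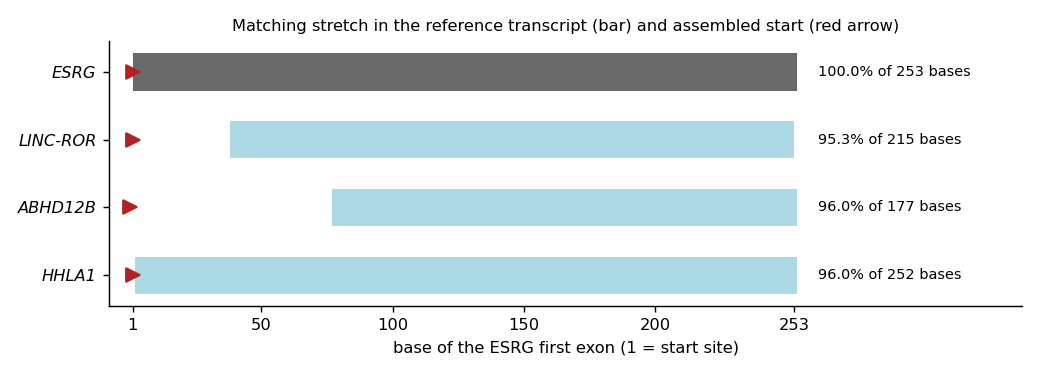
Stretch of the ESRG first exon (x axis, bases, 1 at the start site) matched by the reference first exon of each gene (bars, with identity), and the assembled start of its most abundant transcript (red arrows). For HHLA1 the reference is the HHLA1-OC90 readthrough. All 4 arrows lie within 1 base of each other, although the LINC-ROR and ABHD12B reference exons begin at bases 38 and 77.

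The donor of this exon was shared by transcripts of 3 of these genes, while the 1 ABHD12B transcript was unspliced. All 6 LINC-ROR transcripts spliced after base 253 on the ESRG scale, as did 5 of the 12 ESRG transcripts. The most abundant HHLA1 transcript had a first exon of 252 bases. A first exon of 251 to 255 bases was present in 9 of the 32 multi-exon transcripts of the 6 genes (28.1%) and in 842 of 79754 multi-exon transcripts of the whole assembly (1.06%). The window was set around the short ESRG exon, so the 5 ESRG transcripts that have it are among the 9 by choice. The 9 come from 3 genes, and transcripts of a gene share their start, so the 2 shares are only a description. The hexamer AATAAA, the core of the polyadenylation signal, was searched on the transcript strand only. It occurred in the opening 100 bases of 27 of the 82 GENCODE transcripts that begin with an ESRG-like exon (32.9%), and in 2.38% of 203677 GENCODE transcripts of at least 100 bases. The 82 belong to 38 genes, and many are UCA1 transcripts with the same start, so they are not independent. A share per gene was not computed, and the 32.9% may rest on few loci. Here an ESRG-like beginning means a match of at least 100 bases that starts within 60 bases of the transcript's own start.

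The libraries held 503840 to 1180888 counted reads, with the 2 ectoderm libraries the deepest. In reads per 1e6 counted reads (CPM), 3 reads are worth between 2.54 and 5.95. The 2 hPSC libraries differed from each other by more than the other pairs, as the chi-square over genes, divided by its degrees of freedom, was 7.62 for them and 1.59 to 2.18 for the others, and SOX2 had 71 reads in one and 5 in the other. Of 12 pluripotency markers, all 12 were read in both hPSC libraries, and their summed level was 4331 and 4372 CPM there. It was 1182 and 1328 CPM in the ectoderm libraries, 1682 and 1966 in those of endoderm, and 384 and 445 in those of mesoderm. The markers did not move together. In ectoderm edgeR called 9 of the 12 lower and 1, LIN28B, higher, beside 24.8% and 23.8% of all tested genes. In endoderm 7 were lower and 1, GDF3, higher, beside 13.7% and 13.4%. In mesoderm 10 were lower and none higher, beside 18.2% and 16.9%. The ectoderm sum held POU5F1 at 4.23 and 16.5 CPM and LIN28B at 198 and 243 CPM. Endoderm markers were at 0 in hPSC and ectoderm, 2203 and 2301 CPM in endoderm, and 5.95 and 15.1 in mesoderm. Ectoderm markers summed to 791 and 1005 CPM in their own group, 416 and 422 in endoderm, and 77 and 139 in hPSC, where only 1 of the 6 was read. That 1 was OTX2, which also made up nearly all of the endoderm sum, at 406 and 412 CPM. In ectoderm OTX2 was lower, at 134 and 153 CPM, and did not pass against hPSC (edgeR log2 fold change -0.05, adjusted p = 0.92). Mesoderm markers summed to 1056 and 1149 CPM in mesoderm, 111 and 169 in endoderm, and 44.9 or less in hPSC and ectoderm. The mesoderm sum came from HAND1, TBX3 and BMP4. TBXT had 1 and 0 reads in mesoderm, and MIXL1 and FOXF1 had none. In endoderm MIXL1 had 14 and 23 reads and TBXT 4 and 1. Undifferentiated cells that remain in a differentiated culture and a low level in every cell cannot be told apart in bulk RNA, nor can fewer cells and less RNA per cell.

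All 6 genes were highest in the hPSC group, and for each of them both libraries of every differentiated group lay below both hPSC libraries. Over the 10500 genes with at least 9 hPSC reads, the hPSC reads of the lowest of the 6, this separation held for 31.9% in ectoderm, 48.0% in endoderm and 33.8% in mesoderm. LINC-ROR and HHLA1 had no read in any differentiated library, as did 0.248% of those genes. The 6 differed in what was left after differentiation. ESRG kept a low level in ectoderm and endoderm, LINC01108 kept reads in endoderm, and SCGB3A2 in mesoderm.

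**Figure D2:**
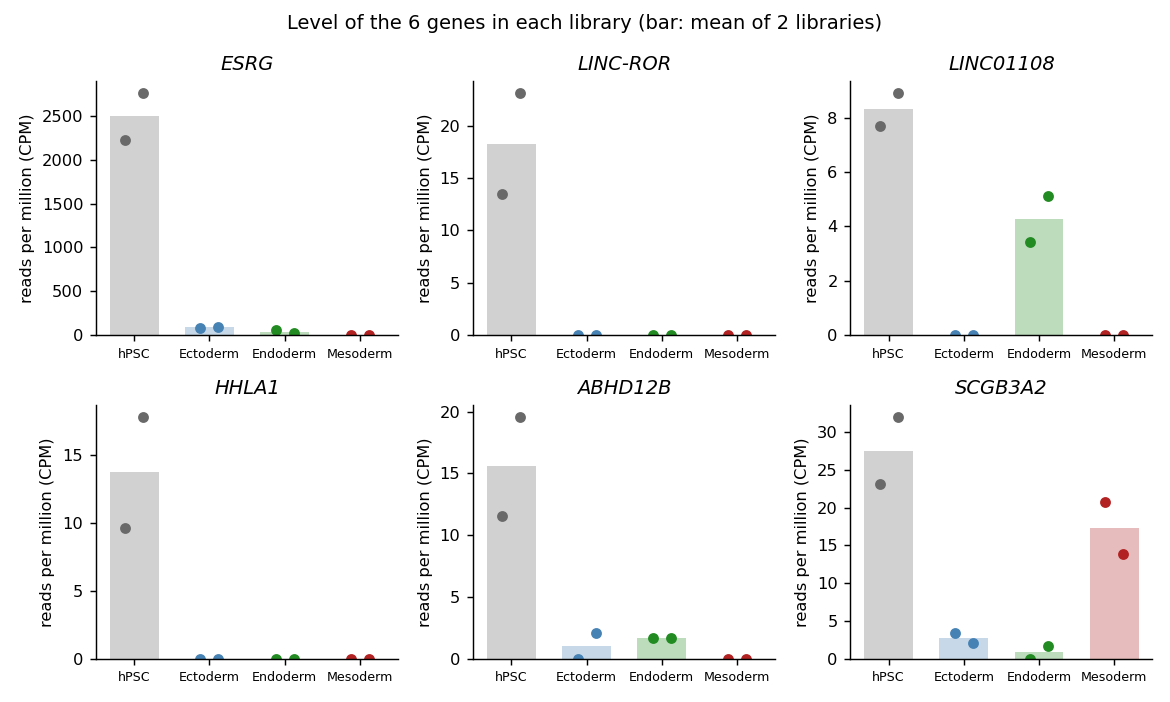
Level of each gene in CPM (y axis, a separate linear scale from 0 in each panel) in the 4 groups (x axis), with points for the 2 libraries and bars for their mean. ESRG reaches 2760 CPM and the other 5 genes stay at 32.0 or below. SCGB3A2 in mesoderm is the tallest bar outside hPSC relative to its own panel.

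ESRG, a noncoding RNA used as a marker of human pluripotent cells, was by far the most abundant of the 6. It had 1158 and 1551 reads in hPSC, while ectoderm held 100 and 92, endoderm 31 and 12, and mesoderm 0 and 3. The groups did not overlap: hPSC was highest, ectoderm lay above endoderm, and mesoderm was at or near 0. The hPSC mean was 2495 ± 375 CPM (SD, n = 2), the ectoderm mean 89.9 ± 7.38, the endoderm mean 36.7 ± 23.0 and the mesoderm mean 2.98 ± 4.21. From pooled CPM, ESRG was 28-fold lower in ectoderm (95% interval from counting error alone 24.2 to 32.6) and 68.3-fold lower in endoderm (50.5 to 94.6). In mesoderm the ratio was 864-fold, from 3 reads, with an interval of 295 to 4193.

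ESRG fell in all 3 comparisons with hPSC. The log2 fold change by edgeR's quasi-likelihood test was -5.24 (SE 0.46, adjusted p = 8.02e-07) in ectoderm, where 24.8% of the 10847 tested genes were called lower. In endoderm it was -5.78 (SE 0.49, adjusted p = 1.47e-06), where 13.7% of genes were called lower. In mesoderm it was -9.91 (SE 0.67, adjusted p = 9.53e-08), where 18.2% were. These fitted values use TMM scaling, and so differ from the ratios of CPM. Between the derivatives, mesoderm was lower than endoderm by a log2 difference of -4.13 (SE 0.79, adjusted p = 0.000665), with 47.1% of genes called in either direction. Ectoderm was higher than mesoderm by 4.67 (SE 0.72, adjusted p = 0.00016), with 35.4% called. Ectoderm and endoderm were not separated by the test, with a log2 difference of 0.54 (SE 0.46, adjusted p = 0.319), although the CPM values did not overlap, and 63.1% of genes were called in this comparison. Without the hPSC library of repeat 1 the values against hPSC were -5.52, -6.05 and -10.20, and without that of repeat 2 they were -4.83, -5.42 and -9.58, all past the threshold. The values that involve mesoderm rest on its 3 reads, all in repeat 2. Without that library mesoderm has no ESRG read and the fitted values, which are then no bound, were -13.86 against hPSC, -8.17 against endoderm and 8.77 for ectoderm against mesoderm. Without mesoderm repeat 1 they were -8.84, -3.15 and 3.74, all still past the threshold. With each of the 8 libraries left out in turn, ectoderm and endoderm were still not separated, with values from 0.087 without endoderm repeat 2 to 1.38 without endoderm repeat 1.

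The ESRG reads came from 12 assembled transcripts on the minus strand of chr3:54628680-54639857, inside CACNA2D3, a calcium channel subunit gene on the opposite strand. All 12 began at position 54639857, the reference start. Whether the authors' counting used strand is not given in the sources used here, but CACNA2D3 transcripts that overlap this interval had few reads, with 1 and 1 in hPSC, while ectoderm held 12 and 7 and the others none. The most abundant ESRG transcript is not the annotated one. It has 4 exons and 3344 bases, its last exon starts 305 bases further downstream, and it held 63.2% of the hPSC ESRG reads. The transcript with the reference intron chain held 9.78%.

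The transcripts differed in the length of their first exon. The first exon of the reference, 2167 bases long, was used by 84.8% of hPSC ESRG reads (Clopper-Pearson 95% interval 83.3 to 86.1). The short exon of 253 bases was used by 8.38% (7.36 to 9.49), and 2 transcripts with a longer first exon held 6.87% (5.94 to 7.88). In the GENCODE transcript, 86 bases of the exon (22 to 107) recur with 97.7% identity at bases 2166 to 2251, across the junction of exons 1 and 2. Since exon 1 is 2167 bases long, almost all of this second stretch lies in exon 2. Intervals of shares and folds cover counting error only.

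**Figure D3:**
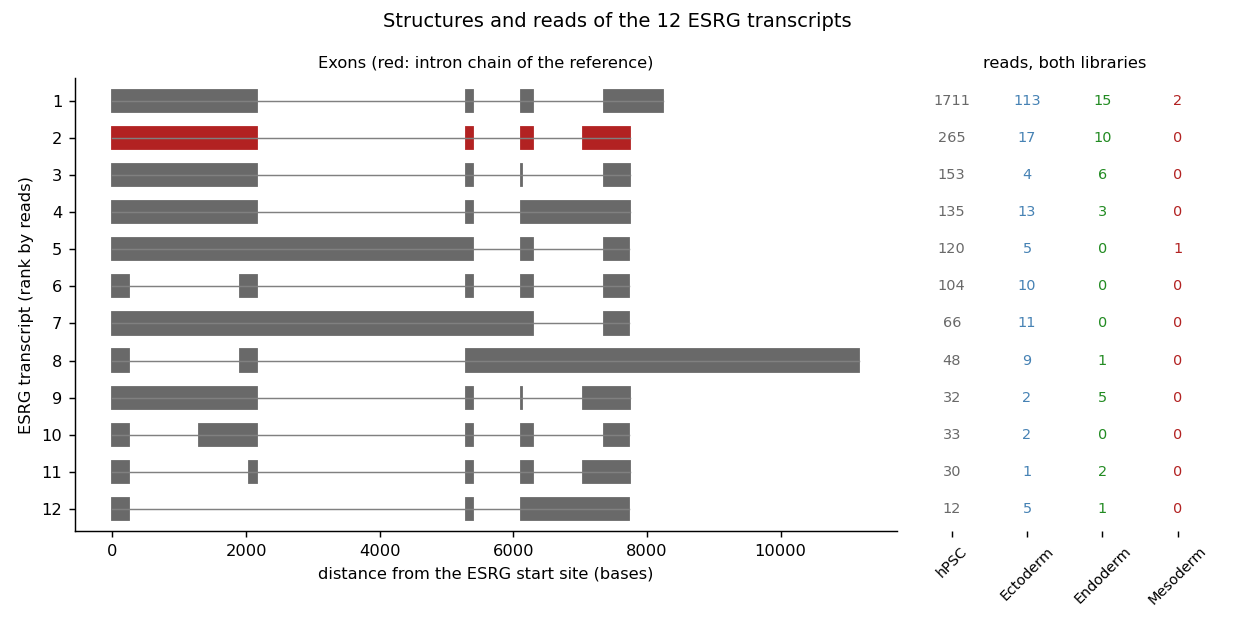
Exons of the 12 ESRG transcripts (boxes, x axis in bases from the ESRG start site, ranked by total reads, red for the reference intron chain) and their reads summed over both libraries of each group (right). The top transcript holds 1711 hPSC, 113 ectoderm, 15 endoderm and 2 mesoderm reads, and 5 transcripts have the short first exon.

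At the level of single transcripts, 11 of the 12 passed the low-count filter, and all 11 were called lower by edgeR in every comparison with hPSC. The background of transcripts called lower was 22.1% in ectoderm, 13.6% in endoderm and 16.3% in mesoderm, of 12440 tested. Apart from the most abundant, with 54 and 59 reads in ectoderm, they passed only through the hPSC libraries, where all 11 were high. Their number therefore adds nothing to the result for the gene. The most abundant transcript had a log2 fold change of -5.13 for ectoderm, -6.67 for endoderm and -9.65 for mesoderm.

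Some shares within the remaining ESRG reads were set apart in endoderm, without passing a test. The most abundant transcript held 64.8% and 62.0% of ESRG reads in hPSC, while ectoderm held 54.0% and 64.1% and endoderm 35.5% and 33.3%. Transcripts whose exon 3 is cut to 9 bases held 5.53% and 7.80% in hPSC, while ectoderm held 4% and 2.17% and endoderm 25.8% and 25.0%. The reference start of the last exon was used by 11.5% and 12.5% of reads in hPSC, and by 32.3% and 58.3% in endoderm. In each of these 3 measures the endoderm libraries did not overlap the hPSC libraries. The 3 divide the same reads and are not independent, and not every measure separated. The short first exon held 8.55% and 8.25% in hPSC and 9.68% and 8.33% in endoderm. The endoderm shares rest on 31 and 12 reads. For each of the 3 measures an exact two-sided permutation test of 2 libraries against 2 gives p = 0.333, the smallest it can give, so it cannot decide.

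LINC-ROR, a noncoding RNA named as a regulator of reprogramming, had 7 and 13 reads in hPSC and none in the other 6 libraries. The hPSC mean was 18.3 ± 6.82 CPM (SD, n = 2). Against a floor of 3 reads per group, its level was at least 13.2-fold lower in ectoderm, 7.22-fold in endoderm and 6.38-fold in mesoderm. The 6 transcripts lie on the minus strand of chr18:57054558-57072156. The most abundant, with 5 exons and 2739 bases, had 4 and 6 reads in hPSC. The 4 reads that did not begin at the ESRG-like base 1 began at the reference start. Unlike ESRG, no LINC-ROR transcript kept a longer first exon.

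HHLA1, a gene of unknown function on the minus strand of chr8:132061131-132085656, had 5 and 10 reads in hPSC and none elsewhere. The hPSC mean was 13.7 ± 5.77 CPM (SD, n = 2), and the bounds were at least 9.93-fold, 5.42-fold and 4.79-fold lower in ectoderm, endoderm and mesoderm. Its main transcript has 8 exons and had 3 and 5 hPSC reads. The other 2 have a first exon of 5939 bases and had 7 reads together. None began at the reference start of the coding gene. The HHLA1-OC90 readthrough, with the same start, had 3 and 2 reads in hPSC, 1 in endoderm and none in ectoderm or mesoderm, and OC90 itself, an otoconial protein gene, had 1 read in all.

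ABHD12B was represented by 1 unspliced transcript at chr14:50893505-50896844 on the plus strand, 21345 bases downstream of the start of the coding transcript. It had 6 and 11 reads in hPSC, while ectoderm held 0 and 2, endoderm 1 and 1, and mesoderm none. The hPSC mean was 15.6 ± 5.67 CPM (SD, n = 2). The pooled ratio was 16.9-fold lower in ectoderm (counting interval 4.01 to 151) and 9.21-fold lower in endoderm (2.19 to 82.2), and the level was at least 5.42-fold lower in mesoderm. No assembled transcript carried the annotated coding exons upstream, so the reads counted for ABHD12B are those of this unspliced transcript.

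LINC01108, a noncoding RNA on chromosome 6, had 4 and 5 reads in hPSC, 2 and 3 in endoderm, and none in ectoderm or mesoderm. The hPSC mean was 8.30 ± 0.84 CPM (SD, n = 2) and that of endoderm 4.27 ± 1.20. Endoderm was lower in both libraries, but the pooled ratio of 1.95 had a counting interval of 0.587 to 7.41, so a difference was not detectable at this depth. Of the 5 endoderm reads, 4 belonged to a transcript of 9 exons that starts at 14300858, 15404 bases upstream of the reference start. That transcript had 0 and 2 reads in hPSC.

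Most reads of the LINC01108 locus carried no gene name. A group of 6 unnamed transcripts on the same strand had 12 and 18 reads in hPSC and none in any differentiated library. The level was at least 19.9-fold lower in ectoderm, 10.8-fold in endoderm and 9.57-fold in mesoderm, with edgeR adjusted p of 8.81e-05, 0.00185 and 0.000712. The group passed the low-count filter only through its hPSC reads and could only be lower elsewhere, so these p-values are a description. Of the 6, 3 began at 14302480 with a first exon of 251 bases (chr6:14302230-14302480), within 2 bases of the short ESRG exon in length. The sequence of that exon was not analysed here. The named transcripts with endoderm reads began elsewhere.

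SCGB3A2 differed from the other 5 in mesoderm. It had 12 and 18 reads in hPSC, while ectoderm held 4 and 2, endoderm 0 and 1, and mesoderm 11 and 7. The hPSC mean was 27.6 ± 6.31 CPM (SD, n = 2), the ectoderm mean 2.73 ± 0.93, the endoderm mean 0.853 ± 1.21 and the mesoderm mean 17.3 ± 4.82. The order was hPSC, mesoderm, ectoderm, endoderm. The highest groups were close, at 23.1 and 32.0 CPM in hPSC and 20.7 and 13.9 in mesoderm.

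SCGB3A2 fell in ectoderm by edgeR, with a log2 fold change of -3.64 (SE 0.59, adjusted p = 0.000193), and in endoderm, with -4.50 (SE 0.90, adjusted p = 0.00191). The gene passed the low-count filter through its hPSC libraries, so these calls against hPSC are a description. The endoderm value rests on 1 read: it was -3.49 (edgeR adjusted p = 0.0443) without endoderm repeat 1 and -7.41 (adjusted p = 0.0176) without endoderm repeat 2, which held that read, so that the last value is no bound. In mesoderm the value was -0.91 (SE 0.50, adjusted p = 0.167), which did not pass. The pooled ratio in mesoderm was 1.60, with a counting interval of 0.861 to 3.04. Mesoderm was higher than endoderm by 3.59 (SE 1.02, adjusted p = 0.00958), and ectoderm was lower than mesoderm by -2.74 (SE 0.66, adjusted p = 0.00478). Both of these calls were lost without 1 library: without mesoderm repeat 1 the adjusted p was 0.0694 against endoderm and 0.102 against ectoderm, without endoderm repeat 1 it was 0.0958 against endoderm, and without ectoderm repeat 2 it was 0.07 against ectoderm. DESeq2 gave 0.0682 against endoderm.

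The start sites of SCGB3A2 also differed between hPSC and mesoderm. The 7 transcripts lie on the plus strand of chr5:147870713-147882191, and none with reads began at the coding reference start used here, 147878711. Another coding transcript in GENCODE 29 starts at 147870682. The assembled transcript with its intron chain began 31 bases downstream of that start, with 1 read in hPSC and 1 in mesoderm. Of 30 hPSC reads, 14 began at 147871498, 7213 bases upstream of 147878711, and 7 each began at 147871019 and 147871680. Of 18 mesoderm reads, 11 began at 147871019 and 1 at 147871498. The mesoderm reads at 147871019 were 9 in repeat 1 and 2 in repeat 2, and 8 of the 9 belonged to 1 transcript of 5 exons, so most of them rest on 1 library. A spliced antisense gene, ENSG00000288774, begins at 147874229 and overlaps these starts. It had 24 and 37 reads in hPSC, while ectoderm held 4 and 0, endoderm 1 and 1, and mesoderm none, where it was at least 19.5-fold lower (edgeR adjusted p = 7.5e-05). This gene too passed the low-count filter only through hPSC, so its direction against hPSC was set in advance. The sense reads in mesoderm were thus found without reads of the antisense gene.

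**Figure D4:**
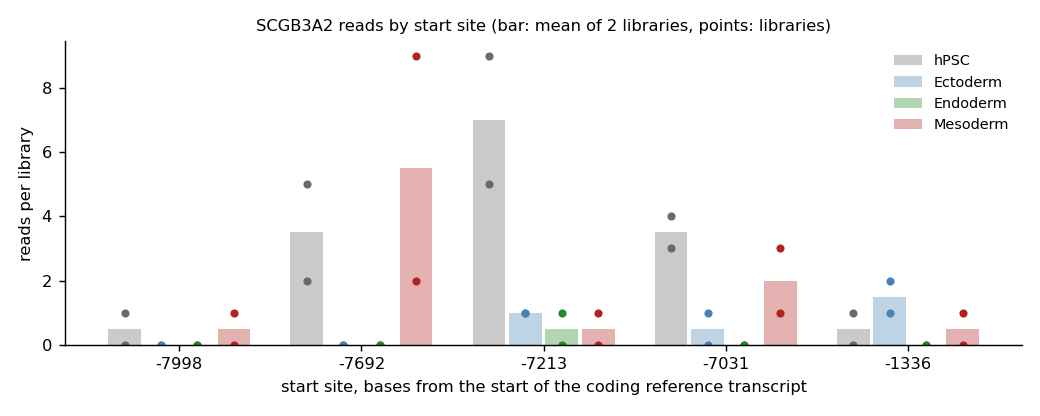
SCGB3A2 reads per library (y axis) by start site (x axis, bases from the coding reference start at 147878711, negative upstream). Bars show the mean of 2 libraries and points the libraries. hPSC reads peak at -7213, with 5 and 9, and mesoderm reads at -7692, with 9 and 2.

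Only ESRG and SCGB3A2 passed the low-count filter. SCGB3A2 passed through its hPSC libraries, at 23.1 and 32.0 CPM. ESRG was above that level in ectoderm too, at 84.7 and 95.1 CPM, and so did not depend on hPSC. Without the filter, over 29937 genes, edgeR called 6 of the 6 lower for ectoderm, 5 for endoderm and 5 for mesoderm. The shares of all genes called lower in that fit were 8.64%, 5.35% and 7.29%. The genes not called were LINC01108 in endoderm (adjusted p = 0.832) and SCGB3A2 in mesoderm (adjusted p = 0.298). ABHD12B in endoderm was close to the threshold (adjusted p = 0.0477).

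The genes most like the 6 across the 8 libraries were found by Pearson's r of log2(CPM + 1), as a description, for the 5 with at least 10 CPM in hPSC. The 8 points share the 4 groups, so any gene with the same order of groups scores high. Nearest to ESRG were TWNK, GLS2, ARRDC1-AS1, ATP5IF1 and LINC00678, with r from 0.979 to 0.985. LINC00678, a noncoding RNA, itself begins with an ESRG-like exon and had 118 and 161 reads in hPSC, while ectoderm held 33 and 31, endoderm 8 and 6, and mesoderm 1 and 1. The same 5 genes were nearest to LINC-ROR and to HHLA1, and among them were the unnamed transcripts of the LINC01108 locus, with r of 0.999 and 0.998. ABHD12B was nearest to ENSG00000235152 and to an unnamed locus (r of 0.982 and 0.976), and SCGB3A2 to HDDC3 and FGD5 (r of 0.962 and 0.960).

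Among 8 other genes with reported HERVH links, 4 were tested. In ectoderm and in mesoderm 3 of the 4 fell. In endoderm 1 fell, 1 rose and 2 did not pass. Of all genes tested, 24.8% were called lower in ectoderm, 18.2% in mesoderm and 13.7% in endoderm, and with 4 genes nothing is read from the difference. LINC00678 fell in all 3 derivatives. LINC00458 had 25 and 18 reads in hPSC, while ectoderm held 3 and 1, endoderm 33 and 29, and mesoderm none. It fell in ectoderm (edgeR log2 fold change -4.68, SE 0.53, adjusted p = 1.7e-05) and not in endoderm (0.75, SE 0.35, adjusted p = 0.126). Its level in ectoderm was lower than in endoderm by -5.43 (SE 0.50, adjusted p = 1.02e-06), while that of ESRG was not. CALB1, which encodes the calcium buffer calbindin, rose in endoderm from 9 and 8 reads to 64 and 78 (edgeR log2 fold change 3.27, SE 0.42, adjusted p = 5.9e-05), a direction found in none of the 6. Of all genes, 13.4% were called higher in endoderm. GENCODE gives CALB1 transcripts with an ESRG-like beginning, but no counted CALB1 transcript of the assembly began there, so these reads are not tied to that start.

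The ESRG-like starts were then counted over all genes. In GENCODE 29, 38 genes had a transcript with an ESRG-like beginning, and reads began there for 4 of the 6 and for 19 other genes. GENCODE lists the HHLA1 start only under the HHLA1-OC90 readthrough. The readthrough's own reads, from the same start, stand among the 19, so this start appears on both sides. The summed level of the 4 was 2265 and 2820 CPM in hPSC, while ectoderm held 84.7 and 97.2, endoderm 54.6 and 22.2, and mesoderm 0 and 5.95, nearly all of it ESRG. That of the other 19 was 1450 and 1473 in hPSC, while ectoderm held 96.5 and 108, endoderm 596 and 513, and mesoderm 28.2 and 47.6. Of the 107 transcripts of the other genes, 24 were tested. edgeR called 21 lower and none higher in ectoderm, 22 lower and none higher in mesoderm, and 18 lower and 3 higher in endoderm. Of all transcripts tested, 22.1%, 16.3% and 13.6% were called lower in ectoderm, mesoderm and endoderm, and 23.8%, 16.5% and 13.1% higher. A transcript that passed the low-count filter only through its hPSC reads had to be lower elsewhere, so the counts are a description. The transcripts called higher belonged to the noncoding genes AL009031.1 and AC104257.1. AL009031.1 rose from 6 and 10 reads in hPSC to 118 and 138 in endoderm, with none in ectoderm or mesoderm, and AC104257.1 had 77 and 70 in hPSC and 128 and 86 in endoderm. In 4 of the 19 other genes (AL009031.1, LINC00458, LINC02474 and PPIAP46) both endoderm libraries lay above both hPSC libraries.

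**Figure D5:**
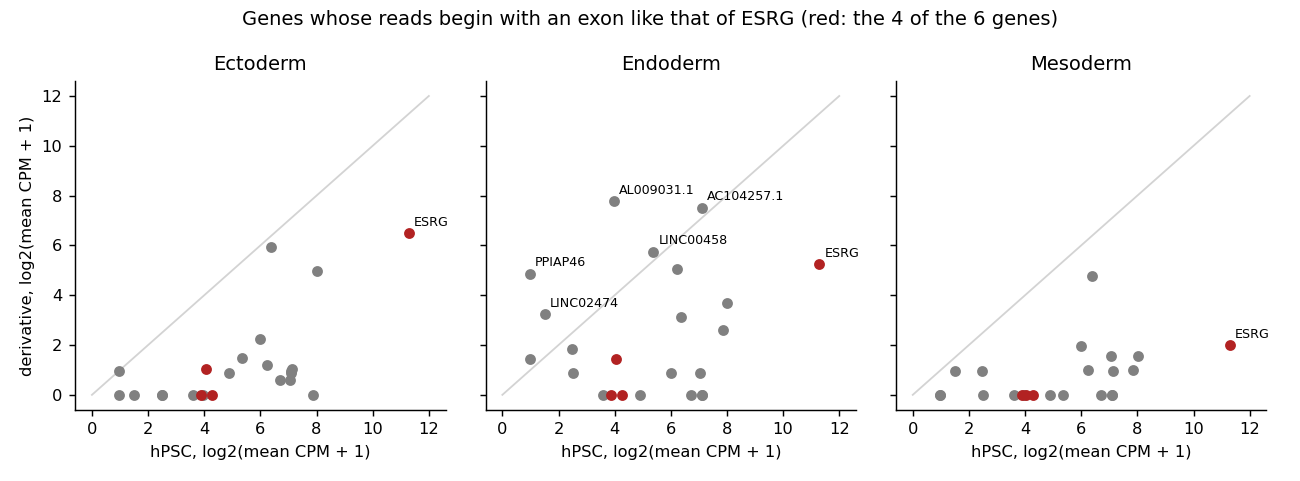
Mean CPM at ESRG-like starts, as log2(CPM + 1), in hPSC (x axis) and in each derivative (y axis). Each point is a gene, red for ESRG, LINC-ROR, ABHD12B and HHLA1, and the grey line marks equal levels. ESRG lies far below the line in all 3 panels, and genes above the line by more than a few reads, labelled, appear only in the endoderm panel.

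Factors reported to act on HERVH were read in the same libraries. Of 10 reported activators, 8 were tested, and 2 fell and 1 rose in ectoderm, 3 fell in endoderm, and 3 fell and 1 rose in mesoderm. Of all genes, 24.8%, 13.7% and 18.2% were called lower and 23.8%, 13.4% and 16.9% higher in ectoderm, endoderm and mesoderm, so with 8 genes these counts are no result about the factors. POU5F1, the core pluripotency factor, had 372 and 352 reads in hPSC, while ectoderm held 5 and 16, endoderm 61 and 69, and mesoderm 1 and 5. NANOG had 79 and 129 in hPSC, while ectoderm held 3 and 0, endoderm 92 and 65, and mesoderm 0 and 1. By edgeR, NANOG fell in ectoderm (log2 fold change -7.35, SE 0.62, adjusted p = 5.42e-07) and not in endoderm (-0.22, SE 0.38, adjusted p = 0.722). SOX2 had 71 and 5 reads in hPSC, while ectoderm held 180 and 129 and the others none. SOX3, among the 3 called lower in endoderm, had 46 and 0 reads in hPSC and none in endoderm. That call rests on 1 hPSC library. TFCP2L1 had 7 and 7 reads in hPSC and was not tested. FOXP1, whose stem cell isoform is known as an activator of pluripotency genes, rose in ectoderm and mesoderm by 1.93 and 2.15. EP300, MED6 and MED12 passed in none of the 3 comparisons.

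Of 4 reported repressors, 3 were tested. TRIM28, the corepressor that brings histone methylation to retroviral copies, had 176 and 235 reads in hPSC, while ectoderm held 260 and 157, endoderm 66 and 92, and mesoderm 129 and 64. It fell in all 3 derivatives, with log2 fold changes of -1.43, -1.17 and -1.29 (edgeR adjusted p = 0.00449, 0.0284 and 0.0134). SETDB1, the histone methyltransferase that works with it, passed in none, with log2 fold changes of -0.82, 0.49 and -0.24. ZNF90 passed in none either, and ZNF534 had too few reads to be tested.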

How the data were processed

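Long-read RNA libraries of H1 cells were compared as 4 groups of 2. The authors deposited whole raw counts per assembled transcript. The deposited endoderm columns, listed here under expected counts, hold whole raw counts too, and nothing was rounded. minimap2 and StringTie on GRCh38 are named, per the submitters' processing notes. The counter, its treatment of strand and of near-identical copies, and the versions are not given in the sources used here. Reads from HERVH copies can align to several loci, so the counts of these genes are uncertain in that respect. Gene counts were sums over named transcripts. The test was that of edgeR 4.0.16 under R 4.3.3 (TMM, filterByExpr at a minimum count of 10, 1 quasi-likelihood fit over all 8 libraries, Benjamini-Hochberg adjustment at 0.05, two-sided), and the code was tested on simulated data. The SE is the log2 fold change divided by the root of F. Levels are counts per 1e6 of the library total. Where a group had no read, the fold is a bound from 3 reads over the group. Start sites within 100 bases were joined. Sequences came from GENCODE 29 and were aligned with blastn 2.17.0. The exon sequences are not reported here. DESeq2 1.42.0, other scalings and filters, the repeat as a block and leaving out each library were alternatives. The 6 genes and the lists were chosen with earlier results of these data known. Named were the 6 genes, their transcripts with at least 10 reads and the listed genes at 10 CPM or more in hPSC. Of the 5 genes most similar to a member, some or all were named. Genes with ESRG-like starts were named after their values were seen.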

Additional observations from a re-analysis of the deposited data

Results flagged for a closer look

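In 4 cases a result differed between derivatives under the same contrast with hPSC, by a test of the difference itself (edgeR's quasi-likelihood test, adjusted over all genes). ESRG was further below hPSC in mesoderm than in endoderm, with a log2 difference of -4.13, and further below in mesoderm than in ectoderm, with a log2 difference of 4.67 for ectoderm against mesoderm. SCGB3A2 went the other way: mesoderm lay above endoderm by 3.59, and ectoderm against mesoderm was -2.74. In reads, mesoderm held 0 and 3 for ESRG and 11 and 7 for SCGB3A2.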

How the results depend on the processing

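ESRG stayed below hPSC, with an adjusted p under the threshold, in all 16 alternatives of each of the 3 comparisons, and SCGB3A2 in all 14 that could be fitted in ectoderm and in endoderm. In the main fit the filter let SCGB3A2 in through its hPSC libraries, so for that gene the agreement is a description. In mesoderm SCGB3A2 did not pass in any of 14. The 4 shallow genes have no main value, and the number of the 6 that was called follows the filter: without it the counts were 6 in ectoderm, 5 in endoderm and 5 in mesoderm, and with a minimum count of 20, or with only reference intron chains, 1 in ectoderm and 1 in endoderm, since SCGB3A2 then drops out. Leaving out a library could also let shallow genes into the test, since the filter then needs fewer libraries. Counts from those fits are not given, as such genes enter through their hPSC reads. Between ectoderm and endoderm, differences that the test did not call changed sign, ESRG to -0.67 with only reference intron chains and SCGB3A2 to -0.034 without endoderm replicate 1 (up to 3.89 over the other alternatives). The lost calls of SCGB3A2 against mesoderm are given with that gene. The cause was not tested.

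Counts over all genes moved with the tool and with the libraries. DESeq2 called 3356, 1836 and 2315 genes in ectoderm, endoderm and mesoderm against hPSC and 2015 in ectoderm against mesoderm (edgeR 5274, 2946, 3810 and 3839), and 2899, 1606 and 2133 transcripts (edgeR 5705, 3325 and 4079). With only the 4 libraries compared, 2468 genes and 2592 transcripts were called in mesoderm, and with a minimum count of 20, 3624 transcripts in ectoderm. Leaving out 1 library in turn gave 3293 to 5960, 1455 to 4067 and 2012 to 5084 genes against hPSC, 3390 to 6487 in mesoderm against endoderm, 1780 to 5631 in ectoderm against mesoderm, and 3391 to 7314, 1573 to 4842 and 2051 to 6160 transcripts against hPSC. Counts moved by over 1.5 times without ectoderm replicate 2 in ectoderm, without either endoderm library in endoderm and without either mesoderm library in mesoderm, where transcripts also did without hPSC replicate 1. Between mesoderm and endoderm this held without endoderm replicate 2, and between ectoderm and mesoderm without any 1 of those 4 libraries. The replicate block called 5104, 2803 and 3615 genes against hPSC and changed no call of ESRG or SCGB3A2. Whether the repeat numbers pair the libraries is not known. Correlations of the repeat differences between groups ran from -0.03 to 0.15, which cannot decide it. Joining start sites within 500 bases in place of 100 left 9 in place of 13 for the 6 genes. With a pseudocount of 0.1, the 5 most similar genes shared 2 for ESRG, 3 for ABHD12B, 2 for SCGB3A2 and 4 for LINC-ROR and HHLA1. With a pseudocount of 5 they shared 3, 2, 2 and 4. Depth limits the 5 genes other than ESRG, whose highest library held 18 reads.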

Other observations

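Genes read in hPSC alone were few. Of 10500 genes with at least 9 hPSC reads, 26 had none in the 6 differentiated libraries. Of these 26, 12 were unnamed loci, 5 carried only an Ensembl identifier and 9 had a symbol. LINC-ROR, HHLA1 and ENSG00000254297 were the 3 with transcripts at an ESRG-like start. The others with a symbol included HTR3A, a serotonin-gated channel subunit, with 8 and 21 reads, CCL26, a chemokine of the eotaxin group, with 9 and 8, and FOXD3, a transcription factor of pluripotent cells and neural crest, with 9 and 1. The unnamed loci included that of LINC01108, with 12 and 18.

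Coding genes also had reads that began with an ESRG-like exon. RPL39L, a ribosomal protein paralog, had 33 and 35 such reads in hPSC, while ectoderm held 5 and 3, endoderm 0 and 1, and mesoderm 2 and 1. TFPI, an inhibitor of the tissue factor pathway of coagulation, had 16 and 15 in hPSC, while ectoderm held 2 and 0 and the others none. Apart from these coding genes, AC022140.1, which has only Ensembl identifiers in the assembly, kept reads in ectoderm. It had 34 and 55 reads in hPSC, while ectoderm held 64 and 63, endoderm 7 and 2, and mesoderm 8 and 19. The ectoderm libraries are deeper: in CPM it stood at 65.5 and 97.9 in hPSC and 54.2 and 65.1 in ectoderm.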
